A study of Mus musculus with 3 samples.

Results

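The cells described here are EpCAM-sorted epithelial tumour cells in which a set of 8 surface and wound-associated genes, Ly6a, Lgals3, F3, Sprr2f, Plat, Tm4sf1, Msln and Ankrd1, took up at least 0.35% of all unique molecular identifiers (UMIs, the counted RNA molecules). Of 2425 epithelial cells from 3 mouse pancreatic tumours, 213 met this rule and are called gated cells below. The rule also asked that the acinar genes Ctrb1, Clps, Pnliprp1, Cpa1, Prss2, Try4 and Cel stay under 0.6% of UMIs and the basal keratins Krt5, Krt14 and Krt15 under 0.3%. The 8 genes chose the cells, so their own levels are given as a description and carry no test.

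Each tumour grew in the pancreas of an NSG mouse, a strain without functional lymphocytes that keeps some myeloid cells. The transplanted cells were tdTomato-positive pre-cancer epithelial cells. Their donors were Msi2-Myc; R26-LSL-tdTomato mice, and the cells were sorted 5 weeks after tamoxifen. Tamoxifen activates the CreER carried by the Msi2 locus, which turns on MycT58A and the red reporter. This genotype and history apply to every tumour compared below, since gated cells and their comparison cells come from the same 3 tumours. Whether each sorted cell descends from the transplanted cells or from the host was not tested. No sample of normal or untreated pancreas entered any comparison. The 3 tumours have the same labels apart from their titles, with 1 library each, so they form 1 group of 3. Differences between tumours are given without a test. The comparison cells were drawn from the other cells of the same tumours. Ductal-like cells, 642 in all, had at least 0.6% of UMIs in the gastric-type genes Tff1, Tff2 and Lgals4, and acinar-like cells, 858 in all, had at least 0.6% in the 7 acinar genes. The epithelial surface gene Epcam stood at 834, 1324 and 986 CPM (UMIs scaled to a sum of 1000000) in gated cells of tumours 1 to 3, against 603, 829 and 1004 CPM in ductal-like cells and 311, 673 and 561 CPM in acinar-like cells.

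Cells short of oxygen stabilise the transcription factor Hif1a, which binds ACGTG cores in DNA and turns on glucose transport, glycolysis, lactate export, carbonic anhydrase and vessel-forming signals. In pancreatic cancer, poorly perfused regions are common, and Msln and Ly6a are both known as surface proteins of carcinoma or progenitor-type cells. Many of the gate genes are also known from epithelia under repair, where annexins, S100 proteins, laminin and integrin genes are active.

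The 3 libraries held 11502184, 9737397 and 16521484 UMIs. Gated cells had a median of 1596.5, 1205.5 and 2112 UMIs in tumours 1, 2 and 3, ductal-like cells 1631, 1244.5 and 1881 UMIs, and acinar-like cells 1763, 1262.5 and 2323 UMIs, so that medians lay close between classes within a tumour. All 1877, 641 and 3494 barcodes with 1000 or more UMIs also had 10 or more UMIs in both other libraries. Cells were therefore kept only in the library that held 60% or more of their UMIs. Tumour 2 contributed only 14 gated cells with 20397 UMIs. These were too few for the gene tests, in which gated cells are represented by tumours 1 and 3. A gene without a count in those 14 cells may stand as high as 147 CPM, the level of 3 counts, and its 0 is given below only for completeness.

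Gated cells were found in every tumour. Tumour 1 had 92 gated cells among 1012 (9.09%, with an exact 95% binomial interval of 7.39% to 11.03%). Tumour 2 had 14 among 204 (6.86%, 3.80% to 11.2%) and tumour 3 had 107 among 1209 (8.85%, 7.31% to 10.6%). The mean share was 8.27% ± 1.22 (SD, n = 3). The 3 intervals overlap, cover counting error only, and depend on the EpCAM sort and on the minimum of 1000 UMIs. With every barcode kept whichever library held most of its UMIs, the shares were 9.09%, 9.57% and 8.83%. A barcode with 1000 or more UMIs in several libraries then counts in each of them. Of the 641 such barcodes of tumour 2, 270 also reached 1000 UMIs in library 1 and 273 in library 3, so these shares are not independent. The cutoff falls in a continuous distribution: the 2 cells just inside it had 0.352% and 0.360% of their UMIs in the gate genes, and the 2 just outside had 0.342% each. In all, 243 cells reached 0.35%, of which 11 exceeded the acinar limit and 19 the basal keratin limit, 17 of these in tumour 3.

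The gate was met by different genes in different cells. A gated cell had a median of 12 gate UMIs (range 4 to 317) from a median of 4 of the 8 genes; 7 cells passed on a single gene and 126 on 4 or more. Ly6a, a lipid-anchored surface protein of the Ly6 family that marks haematopoietic and some epithelial progenitor cells in mice, gave 34.8% of the gate UMIs and had a UMI in 191 of the 213 cells. Without Ly6a in the sum, 94 cells would not have passed, and without Lgals3, which encodes a galactose-binding lectin and gave 19.6% of the gate UMIs, 60 would not. Ankrd1, a known target of the YAP and TEAD transcription factors, was detected in 29 gated cells, 24 of them in tumour 3, and decided the membership of 2. The gate also crossed the gastric-type programme: 44 gated cells (20.7%) had 0.6% or more of their UMIs in Tff1, Tff2 and Lgals4, with 25, 4 and 15 such cells in tumours 1, 2 and 3.

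As the rule fixes, the gate genes were far above the comparison classes. Ly6a stood at 1783, 2451 and 2774 CPM in gated cells of tumours 1 to 3, against 140.3, 197 and 236 CPM in ductal-like and 64.2, 86.0 and 173 CPM in acinar-like cells. Ly6a had a UMI in 81.5%, 85.7% and 97.2% of gated cells. The shares were 17.6%, 18.9% and 30.0% of ductal-like cells and 8.89%, 5.26% and 17.5% of acinar-like cells, at the median depths given above. The Ly6a level and share were thus high in all 3 tumours and did not overlap with either class. Over all ungated cells, those in neither class among them, Ly6a stood at 160, 249 and 312 CPM. Msln, a surface glycoprotein of mesothelium and of many pancreatic carcinomas, stood at 359.7, 147 and 575 CPM in gated cells, against 9.73, 0 and 39.9 CPM in ductal-like and 1.60, 0 and 6.14 CPM in acinar-like cells. F3, tissue factor, which starts blood coagulation, stood at 897, 1079 and 916 CPM, against 121, 49.4 and 117 CPM and 12.8, 28.7 and 32.9 CPM in the same classes. Lgals3 stood at 1486, 735 and 1386 CPM, against 135, 128 and 190.1 CPM and 41.7, 43.0 and 59.2 CPM. These 3 genes, too, were higher in gated cells of each tumour than in any sum of the other classes. Sprr2f, a precursor of the cornified envelope, stood at 1236, 686 and 655 CPM in gated cells, against 5.56, 0 and 12.4 CPM and 1.60, 14.3 and 8.33 CPM. Plat, tissue plasminogen activator, stood at 375, 98.1 and 450.3 CPM, against 13.9, 49.4 and 53.7 CPM and 6.42, 14.3 and 21.1 CPM, and Tm4sf1, a small membrane protein of the tetraspanin-like L6 family, at 428, 147 and 362 CPM, against 8.34, 0 and 9.64 CPM and 6.42, 0 and 23.7 CPM. Ankrd1 was the most uneven, at 41.7, 0 and 307 CPM in gated cells, against 1.39, 0 and 0 CPM and 0, 0 and 2.19 CPM.

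**Figure D1:**
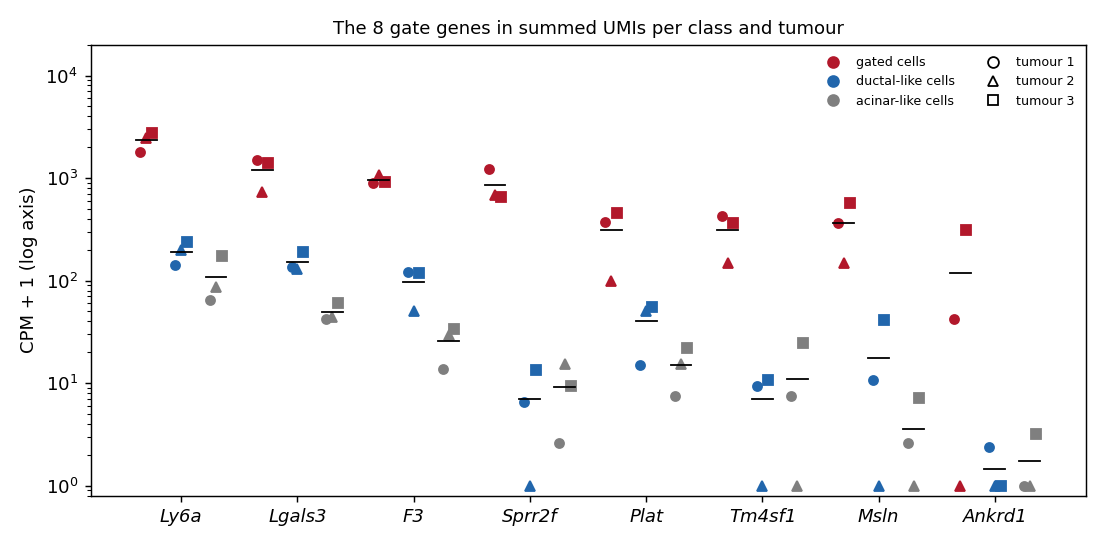
Each point is the level of a gate gene in the summed UMIs of 1 class in 1 tumour, as CPM + 1 on a log axis, and short lines are means over the 3 tumours; red is gated, blue ductal-like and grey acinar-like cells. Gated cells lie above both classes for all genes in each tumour except Ankrd1, which is at 0 in the gated cells of tumour 2.

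The gated cells carried no sign of mesothelial, endothelial or stromal identity beyond single genes. Of 12 mesothelial markers, 10 were at 0 in the gated cells of all 3 tumours, Wt1 and Upk3b among them; the list's 4979, 4707 and 4191 CPM came almost wholly from Krt19, a keratin shared with duct cells. Of 11 endothelial markers, Pecam1, Tie1, Tek and Cldn5 were at 0 in gated cells of every tumour. Ly6c1 gave most of the list's 172, 147 and 362 CPM, against 8.34, 39.5 and 22.0 CPM in ductal-like and 44.9, 0 and 31.1 CPM in acinar-like cells. Fibroblast markers summed to 5.21, 0 and 2.20 CPM, 2 UMIs in all, and the endocrine, hepatocyte and erythroid lists were at 0. Myeloid markers summed to 104, 98.1 and 206 CPM in gated cells, against 59.8, 29.6 and 97.8 CPM in ductal-like and 19.2, 14.3 and 39.5 CPM in acinar-like cells. Cd14, a receptor for bacterial lipopolysaccharide best known from myeloid cells, gave most of that sum, with 62.6, 98.1 and 138 CPM in gated cells, against 55.6, 29.6 and 79.9 CPM in ductal-like cells (edgeR adjusted p = 0.184) and 16.04, 14.3 and 28.5 CPM in acinar-like cells (log2 difference 2.24 ± 0.30 (SE), adjusted p = 3.77e-11). Cd68, a lysosomal protein best known from macrophages, stood at 31.3, 0 and 57.1 CPM, against 4.17, 0 and 9.64 CPM and 3.21, 0 and 6.58 CPM. The macrophage genes Adgre1, C1qa, C1qb and C1qc were at 0 in all 3 tumours. The part of myeloid RNA in the results below was not tested.

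Free RNA, read from barcodes with 10 to 100 UMIs, was rich in some of the same genes. It held Ly6a at 1202, 1489.7 and 1617 CPM, Plat at 172, 224 and 217 CPM and Tm4sf1 at 276, 370.5 and 334 CPM in libraries 1, 2 and 3, in each case above ductal-like and acinar-like cells, and endothelial markers at 6319, 8694 and 8293 CPM. Ly6c1, the first of the leading genes of gated cells, stood at 167, 147 and 329 CPM in gated cells, 2.78, 39.5 and 11.02 CPM in ductal-like cells and 1.60, 0 and 6.58 CPM in acinar-like cells, but at 1420.2, 1818 and 1964 CPM in free RNA. The part of free RNA in the levels of these 4 genes was not tested. In free RNA Msln stood at only 19.7, 22.8 and 18.5 CPM, Sprr2f at 25.6, 31.4 and 31.3 CPM, F3 at 38.9, 39.3 and 40.3 CPM, Lgals3 at 87.3, 85.7 and 98.6 CPM and Ankrd1 at 1.97, 2.86 and 7.11 CPM, below gated cells except for Ankrd1 in tumour 2.

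Promoter sequences are shown for 2 gate genes and 2 hypoxia genes that the results below turn on. They were chosen because each holds a TEAD, AP-1 or hypoxia motif. All are RefSeq sequences of build GRCm38.p6 (the same primary assembly as mm10). They run from 250 bases before to 50 bases after the annotated start on the gene's strand, with motif letters in capitals. Ankrd1 (chr19:36119795-36120094, minus strand) holds GGAATG, the core read by TEAD factors, at 2 places. F3 (chr3:121723287-121723586, plus strand) holds TGANTCA, the AP-1 motif, at 2 places. Pgk1 (chrX:106186850-106187149, plus strand) holds ACGTG, the hypoxia response core, at 2 places on either strand, and Car9 (chr4:43506776-43507075, plus strand) holds 1 such core and 1 AP-1 motif.
Ankrd1: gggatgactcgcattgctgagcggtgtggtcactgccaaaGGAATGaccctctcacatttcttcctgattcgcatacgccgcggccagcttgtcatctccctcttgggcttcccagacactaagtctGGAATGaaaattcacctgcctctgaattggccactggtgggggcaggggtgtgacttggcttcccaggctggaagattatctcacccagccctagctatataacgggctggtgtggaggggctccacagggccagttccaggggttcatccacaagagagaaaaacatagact
F3: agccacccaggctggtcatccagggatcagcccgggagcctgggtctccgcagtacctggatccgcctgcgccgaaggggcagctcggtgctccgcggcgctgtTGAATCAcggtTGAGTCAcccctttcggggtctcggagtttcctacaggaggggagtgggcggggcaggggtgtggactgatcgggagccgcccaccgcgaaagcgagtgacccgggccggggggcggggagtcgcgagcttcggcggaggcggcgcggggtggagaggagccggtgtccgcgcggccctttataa
Pgk1: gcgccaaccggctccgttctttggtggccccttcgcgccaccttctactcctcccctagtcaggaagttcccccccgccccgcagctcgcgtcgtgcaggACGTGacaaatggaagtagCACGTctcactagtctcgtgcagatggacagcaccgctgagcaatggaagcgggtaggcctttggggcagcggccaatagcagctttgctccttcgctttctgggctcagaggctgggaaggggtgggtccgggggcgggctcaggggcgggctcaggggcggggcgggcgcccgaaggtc
Car9: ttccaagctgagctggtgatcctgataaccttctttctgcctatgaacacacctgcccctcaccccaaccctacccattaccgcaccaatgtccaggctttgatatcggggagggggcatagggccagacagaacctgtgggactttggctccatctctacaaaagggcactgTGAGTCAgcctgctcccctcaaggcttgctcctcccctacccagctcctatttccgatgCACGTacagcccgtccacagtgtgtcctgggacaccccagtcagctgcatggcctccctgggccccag
On either strand, GGAATG was found in 14.66% of 32851 RefSeq promoters of this length, TGANTCA in 7.808% and ACGTG in 19.62%. Counted by gene, ACGTG lay in a listed promoter of 27 of the 39 hypoxia and glycolysis genes with an entry (69.23%), against 5886 of 27025 genes in all (21.78%). Of the 5 gate genes with an entry, 1 held it (20.0%). The listed promoters of Adm, Lgals3 and Tm4sf1 held none of these motifs. The matches describe letters in these windows and nothing more.

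Across all genes, gated cells were compared with ductal-like cells of the same tumours with edgeR's quasi-likelihood test on summed UMIs, with the tumour as a block. Genes of the gate and the 2000 most variable genes, which could have shaped the choice of these cells, were left out of counts and carry no p-value. Of 6346 genes so tested, 227 were higher (3.58%) and 143 lower (2.25%) in gated cells at an adjusted p under 0.05. The adjustment itself ran over all 7216 genes of the fit, the left-out genes among them, so calls near the threshold depend in part on genes not counted. The counts fell to 85 and 64 without tumour 1, to 50 and 9 without tumour 3, to 64 and 13 with DESeq2, and to 97 and 25 without the tumour block; they are read below as lists of candidates with their own values. A gene entered the test with 18.5 CPM or more in 2 of the sums, so that a gene can enter through the class where it is high and then has to differ. Of the 227 higher genes 50 entered only through the gated sums, and of the 143 lower genes 25 only through the ductal-like sums. Such genes are given below by their levels and with no p-value.

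Of the tested genes of low oxygen and glycolysis, 12 rose in gated cells against ductal-like cells and none fell. Of 43 listed genes 38 passed the filter on low counts and 26 of these were tested, so 14 did not pass the test. The median log2 difference of the 26 was 0.61, against −0.02 over all genes tested, of which 3.58% rose and 2.25% fell. Pgk1, the glycolytic enzyme whose promoter is shown above, rose most securely, with 954, 637 and 971 CPM in gated cells of tumours 1 to 3, against 450.2, 257 and 368 CPM in ductal-like cells (log2 difference 1.31 ± 0.17 (SE), adjusted p = 1.6e-11). Its groups did not overlap. Car9, a membrane carbonic anhydrase that exports acid, stood at 109, 49.0 and 154 CPM, against 34.7, 69.1 and 68.9 CPM (log2 difference 1.31 ± 0.27 (SE), adjusted p = 8.91e-05), and the 14 gated cells of tumour 2, outside the test, held a single UMI. P4ha1, a collagen prolyl hydroxylase, stood at 20.9, 0 and 35.1 CPM, against 8.34, 0 and 6.89 CPM (log2 difference 1.94 ± 0.59 (SE), adjusted p = 0.0205). Bnip3l, a mitophagy receptor, stood at 203, 98.1 and 158 CPM, against 69.5, 69.1 and 92.3 CPM (log2 difference 1.09 ± 0.25 (SE), adjusted p = 0.000446).

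The enzymes Aldoa, Gapdh, Pgam1, Pkm, Tpi1 and Eno1, which carry glucose through glycolysis, rose by log2 differences of 0.56 to 0.92, and Higd1a, a mitochondrial hypoxia-inducible protein, by 1.06. Gapdh stood at 2403, 2157 and 2106 CPM in gated cells, against 1852, 1490.4 and 1172 CPM in ductal-like cells (log2 difference 0.63 ± 0.15 (SE), adjusted p = 0.00119). Hif1a itself, the oxygen-sensitive factor, rose at the RNA level, with 104, 147 and 81.3 CPM in gated cells, against 45.9, 49.4 and 44.1 CPM (log2 difference 0.99 ± 0.31 (SE), adjusted p = 0.0244). Ldha, which makes lactate, did not pass the test, at 1163, 1029.6 and 1129 CPM, against 1027, 859 and 818 CPM (adjusted p = 0.0886), and neither did the glucose phosphate isomerase Gpi1 (adjusted p = 0.27). The count of 12 became 6 of 27 tested without tumour 1, 4 of 20 tested without tumour 3, and 5 with DESeq2, by which Car9, Pgk1, Eno1, Aldoa and Gapdh passed and P4ha1 had an adjusted p of 0.235.

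The best known targets of low oxygen are among the variable genes and are therefore described without a test. All 12 such members that passed the filter stood above ductal-like cells, with a median log2 difference of 2.18. A gene that passed the filter only through the gated sums has to stand above, and such variable genes were not counted. Adm, the vessel-dilating peptide adrenomedullin, stood at 255, 196 and 165 CPM in gated cells, against 19.5, 19.7 and 22.0 CPM in ductal-like and 1.60, 0 and 7.02 CPM in acinar-like cells. Ndrg1, a stress protein induced by low oxygen, stood at 359.7, 294 and 380.0 CPM, against 65.3, 39.5 and 23.4 CPM and 40.1, 14.3 and 63.2 CPM. In every tumour both were higher in gated than in ductal-like and acinar-like cells. Ungated cells of tumour 1 with 0.2 to 0.35% of UMIs in the gate genes had 132 CPM of Adm and 263 CPM of Ndrg1. Gated cells there at 0.35 to 0.6%, 0.6 to 1.0% and 1.0% or more had 54.3, 144 and 936 CPM of Adm. For Ndrg1 they had 262, 47.9 and 961 CPM. In tumour 3 the ungated cells had 18.0 and 61.3 CPM, and the lowest gated group 130 and 224 CPM. Bnip3, the mitophagy receptor related to Bnip3l, stood at 109, 98.1 and 127 CPM, against 25.0, 9.87 and 8.26 CPM and 33.7, 57.3 and 39.0 CPM, and Ero1l, an oxidase of the endoplasmic reticulum, at 235, 98.1 and 655 CPM, against 77.8, 49.4 and 103 CPM and 107, 86.0 and 114 CPM. Vegfa, the main vessel growth factor, stood at 125, 147 and 132 CPM, against 30.6, 9.87 and 51.0 CPM and 25.7, 0 and 52.2 CPM. For the glucose transporter Slc2a1, gated cells had 209, 245 and 154 CPM, against 40.3, 59.2 and 27.5 CPM and 32.1, 86.0 and 46.9 CPM, while free RNA had 715, 1005 and 973 CPM, above every class; the part of free RNA in this difference was not tested.

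**Figure D2:**
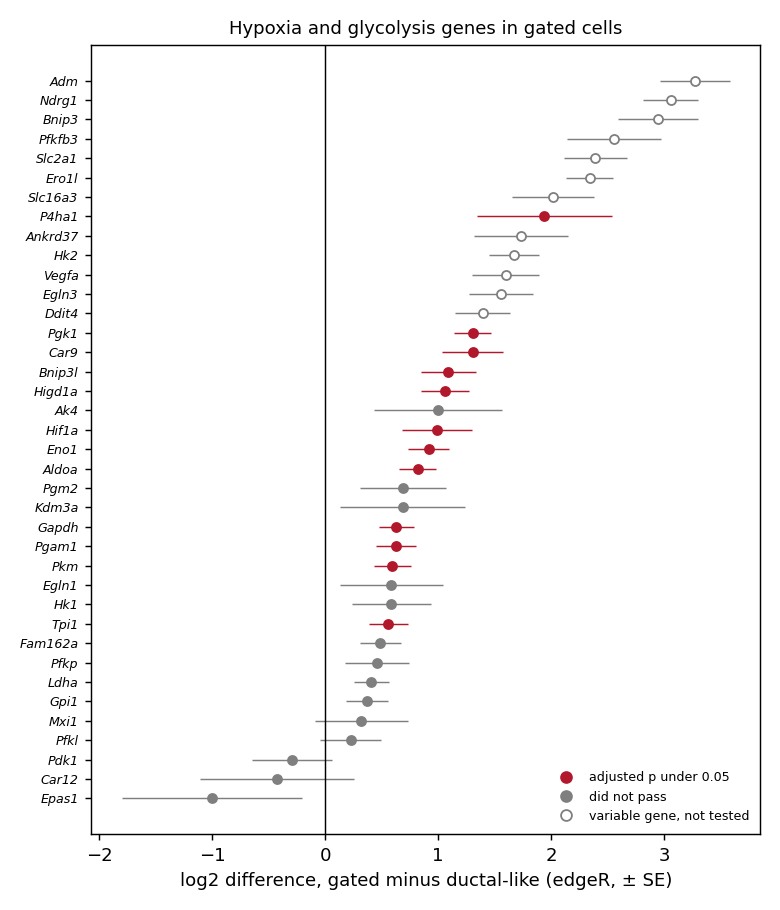
Points are log2 differences of gated minus ductal-like cells for the 38 hypoxia and glycolysis genes that passed the filter on low counts, with edgeR standard errors; red points passed the test, grey ones did not, and open ones are variable genes without a test. Adm has the highest value and Epas1 the lowest, and 12 of the 26 tested genes are red, all to the right of 0.

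Against acinar-like cells, 10 of the 26 hypoxia and glycolysis genes rose and 1 fell. Of all genes tested, 940 were higher (14.8%) and 1004 lower (15.8%) in gated than in acinar-like cells. The 26 genes had a median log2 difference of 0.24, against −0.08 over all genes tested. Pgk1 rose again (537, 673 and 690.0 CPM in acinar-like cells; log2 difference 0.66 ± 0.16 (SE), adjusted p = 0.000362). Car9, at 97.8, 100.3 and 147 CPM in acinar-like cells, did not pass (adjusted p = 0.608), nor did P4ha1 at 24.1, 14.3 and 37.3 CPM (adjusted p = 0.935) and Eno1 at 616, 673 and 383 CPM (adjusted p = 0.954). Pdk1, a kinase that restrains pyruvate oxidation, fell (log2 difference -1.35 ± 0.31 (SE), adjusted p = 0.000138), with 36.5, 0 and 41.7 CPM in gated cells, against 117, 129 and 105 CPM in acinar-like cells. Summed over the list, the level was 12246, 8923 and 11441 CPM in gated cells, 7359, 6258 and 5921 CPM in ductal-like cells and 8739, 9670.1 and 8592 CPM in acinar-like cells. Gated cells were the highest in tumours 1 and 3, but in tumour 2 they lay below acinar-like cells. Single cells differed less from acinar-like cells when each was thinned to 1000 UMIs. The median cell then had 10, 7 and 10 UMIs of the list in gated cells of tumours 1 to 3. It had 7, 6 and 6 in ductal-like and 9, 9 and 9 in acinar-like cells. The count of 10 became 4 of 27 tested without tumour 1 and 5 of 20 tested without tumour 3.

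The hypoxia and glycolysis genes were unevenly spread within the gated cells. Cells of tumour 1 with 1.0% or more of UMIs in the gate genes (18 cells) had 17982 CPM of these genes, against 11535 CPM at 0.6 to 1.0% (21 cells) and 10463 CPM at 0.35 to 0.6% (53 cells). In tumour 3 the same steps held 13796 CPM (13 cells), 10982 CPM (44 cells) and 11232 CPM (50 cells), so in both tumours the highest level lay in the top step, which is thinly filled, and the 2 lower steps were close. Adm and Ndrg1 are part of that sum. Cells just below the gate, at 0.2 to 0.35%, had 11816 CPM of the hypoxia and glycolysis genes in tumour 1 (46 cells), above both lower gated steps, and 8902 CPM in tumour 3 (63 cells), below every gated step. The same cells had 20675 CPM of annexin and S100 genes in tumour 1 and 16275 CPM in tumour 3. In the lowest gated step the annexin and S100 sum was 23316 CPM in tumour 1 and 20104 CPM in tumour 3. Genes of G2 and M phase were lowest in the top step, with 835 CPM in tumour 1 and 1311 CPM in tumour 3. At 0.35 to 0.6% they stood at 3286 CPM in tumour 1 and 2596 CPM in tumour 3. These are values of cells grouped by the gate itself and are given as a description.

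**Figure D3:**
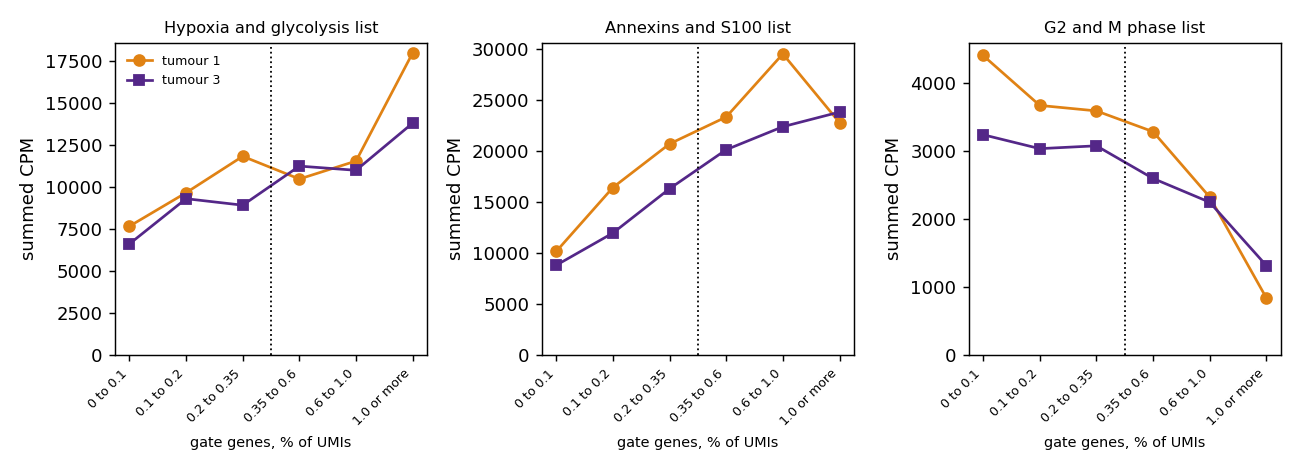
Cells of tumours 1 and 3 without acinar or basal keratin excess were grouped by the percent of their UMIs in the 8 gate genes (horizontal axis), and the vertical axes give the summed CPM of 3 gene lists; the dotted line marks the 0.35% cutoff, with gated cells to its right. The hypoxia and glycolysis sum is highest in the top step of both tumours (17982 and 13796 CPM), where the G2 and M phase sum is lowest (835 and 1311 CPM).

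Genes of injured and basal-type epithelium formed another group. Of 27 listed genes 24 passed the filter and 11 were tested against ductal-like cells. Of the 11, 7 rose (3.58% of all genes tested) and 0 fell (2.25%), with a median log2 difference of 1.04 (−0.02 over all). The count became 4 without tumour 1, 2 of 8 tested without tumour 3, 4 without the tumour block and 3 with DESeq2. Of the 7, Lama3 and Itgb6 entered the test only through the gated sums, and with the filter read in the other classes alone 5 of 9 rose. Lama3, the alpha chain of the laminin that anchors basal epithelium, had 10, 2 and 47 UMIs in gated cells of tumours 1, 2 and 3, which is 52.1, 98.1 and 103 CPM, against 1.39, 29.6 and 16.5 CPM in ductal-like cells. Emp2, a tetraspan membrane protein, stood at 130.3, 0 and 94.4 CPM, against 27.8, 9.87 and 17.9 CPM (log2 difference 2.30 ± 0.35 (SE), adjusted p = 2.85e-08), and Cd9, a tetraspanin, at 516, 784 and 549 CPM, against 246, 316 and 267 CPM (log2 difference 1.04 ± 0.18 (SE), adjusted p = 1.32e-06). The integrin subunits Itga3 and Itgb4, which bind extracellular matrix, rose by log2 differences of 1.32 and 1.04. Cd55, which shields cells from complement, rose by 1.43. Emp2 and Cd9 also passed with DESeq2, whereas Itga3, Itgb4 and Cd55 did not, with adjusted p-values of 0.423, 0.28 and 0.662. Against acinar-like cells, where 14.8% of all genes tested rose, 10 of the 11 did so. Of the 10, Lama3 and Itgb6 again entered only through the gated sums. Among the others was Lamb3, the beta chain of the same laminin (93.8, 0 and 83.5 CPM in gated cells, against 4.81, 0 and 8.33 CPM; log2 difference 3.63 ± 0.40 (SE), adjusted p = 2.54e-15).

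The 13 variable members of this list that passed the filter, which have no test, all stood above ductal-like cells. Members that passed it only through the gated sums, and so had to stand above, were not counted. Clu, the secreted chaperone clusterin, was at 3738, 5442 and 4898 CPM in gated cells, against 646, 957 and 1891 CPM in ductal-like and 566, 415 and 1093 CPM in acinar-like cells. Krt7, a simple-epithelial keratin of ducts, was at 1444, 1373 and 1737 CPM, against 378, 494 and 457 CPM and 86.6, 272 and 147 CPM. Both were higher in the gated cells of each tumour than in any sum of either class. Itga2, a collagen-binding integrin, was at 198, 490.3 and 314 CPM, against 61.1, 49.4 and 55.1 CPM in ductal-like and 12.8, 0 and 19.7 CPM in acinar-like cells.

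Annexins and S100 proteins, which bind calcium and membranes, were higher in part. Of 17 listed genes 16 passed the filter and 8 were tested. Against ductal-like cells 3 rose (3.58% of all genes tested) and 0 fell (2.25%), with a median log2 difference of 0.36 (−0.02 over all). Against acinar-like cells all 8 rose (14.8% of all genes tested). None of the 8 passed against ductal-like cells without tumour 1 or without the tumour block. S100a11 stood at 4009, 3579 and 4129 CPM in gated cells, against 2172, 2477 and 2441 CPM in ductal-like cells (log2 difference 0.80 ± 0.15 (SE), adjusted p = 2.3e-05), and at 326, 315 and 521 CPM in acinar-like cells. S100a6 rose by 0.47 against ductal-like cells (adjusted p = 0.0285) and by 4.58 against acinar-like cells (adjusted p = 5.24e-69). S100a16 rose by 0.69 (adjusted p = 0.0299); with DESeq2 only S100a11 of the 3 passed. Anxa4 (255, 196 and 257 CPM in gated cells, against 265, 237 and 258 CPM) did not pass against ductal-like cells, with an adjusted p of 0.975. The variable annexins Anxa1 (1726, 1519.8 and 1632 CPM in gated cells, against 511, 375 and 452 CPM in ductal-like cells) and Anxa2 (1324, 1128 and 1469 CPM, against 514, 582 and 583 CPM) are described without a test.

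Keratin and junction genes were high in gated cells, as in ductal-like cells. Krt19 stood at 4979, 4707 and 4186 CPM in gated cells, against 3817, 3603 and 3901 CPM in ductal-like cells (adjusted p = 0.325) and 749, 831 and 830.0 CPM in acinar-like cells (adjusted p = 6.87e-39). Epcam did not pass against ductal-like cells (adjusted p = 0.402) and rose against acinar-like cells (log2 difference 1.11 ± 0.16 (SE), adjusted p = 2.87e-09). Krt18, a keratin of simple epithelia, rose against both, with 2748, 3039.7 and 2350.2 CPM in gated cells, 1263, 1411 and 1128 CPM in ductal-like cells (log2 difference 1.08 ± 0.15 (SE), adjusted p = 2.26e-09) and 491, 530.1 and 552 CPM in acinar-like cells. Cldn3, a tight-junction protein, rose as well (log2 difference 0.96 ± 0.19 (SE), adjusted p = 4.52e-05 against ductal-like cells). Of all genes tested, 3.58% rose against ductal-like and 14.8% against acinar-like cells. Of the 10 epithelial markers tested, 2 thus rose against ductal-like cells and 8 against acinar-like cells; without tumour 1, 1 rose against ductal-like cells and Cldn3 did not pass. The median share of mitochondrial UMIs was 2.11%, 2.63% and 3.15% in gated cells, against 3.79%, 4.13% and 4.79% in ductal-like and 2.34%, 2.18% and 2.81% in acinar-like cells, and its part in these differences was not tested.

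Signals that act on other cells were mixed, and most of these genes are variable and have no test. Of 22 listed chemokines and cytokines 9 passed the filter and 2 were tested. Against ductal-like cells 1 of the 2, Il1a, was called higher (3.58% of all genes tested) and 0 lower (2.25%). Of the 7 variable members 5 stood above ductal-like cells, while Cx3cl1 and Il18 did not. Variable members that passed the filter only through the gated sums, and so had to stand above, were not counted. Il1a, an alarmin cytokine stored in epithelial cells, had 14, 1 and 58 UMIs in gated cells, which is 73.0, 49.0 and 127 CPM, against 3, 0 and 1 UMIs in ductal-like cells, or 4.17, 0 and 1.38 CPM. It entered the test only through the gated sums. No Il1a UMI was found in 858 acinar-like cells. Il1f6, another cytokine of that family, had 10, 0 and 28 UMIs in gated and 2, 1 and 4 UMIs in ductal-like cells and entered in the same way. Acinar-like cells had 0, 0 and 3 Il1f6 UMIs. The neutrophil-attracting chemokine Cxcl5 differed between tumours, at 407, 686 and 1421 CPM in gated cells of tumours 1 to 3, against 70.9, 178 and 339 CPM in ductal-like and 22.5, 100.3 and 16.7 CPM in acinar-like cells. Its order over tumours was the same in gated and ductal-like cells. Areg, a ligand of the EGF receptor, stood at 532, 343 and 354 CPM, against 93.1, 49.4 and 110.2 CPM and 8.02, 0 and 27.2 CPM. Of 6 EGF ligands and receptors tested, 0 rose and 0 fell against ductal-like cells, and Egfr, the receptor, had 41.7, 98.1 and 79.1 CPM in gated cells, against 18.1, 29.6 and 51.0 CPM (adjusted p = 0.144).

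Beside F3 and Plat, which chose the cells, a further list held genes of coagulation and of proteolysis at the cell surface. Of 8 tested, 2 were called higher and 1 lower against ductal-like cells (3.58% and 2.25% of all genes tested). All 3 had entered the test only through the class where they are high. Timp2, an inhibitor of metalloproteinases, stood at 26.1, 0 and 54.9 CPM in gated cells, against 4.17, 0 and 1.38 CPM, and Serpinb9, an inhibitor of granzyme, at 20.9, 0 and 32.9 CPM, against 0, 19.7 and 2.75 CPM. For F5, a coagulation cofactor, no UMI was found in gated cells of tumours 1 and 3 and 1 in tumour 2, against 15.3, 19.7 and 23.4 CPM in ductal-like cells. The variable gene Mmp7, a secreted metalloproteinase, stood at 99.1, 245 and 294 CPM in gated cells, against 6.95, 59.2 and 59.2 CPM in ductal-like and 0, 0 and 10.97 CPM in acinar-like cells.

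Genes around YAP, the co-activator that works through TEAD factors and responds to cell shape, were split. Of 13 tested, 5 rose (3.58% of all genes tested) and 2 fell (2.25%) against ductal-like cells, with a median log2 difference of 0.94 (−0.02 over all). Of these 7, Amotl1, Amotl2, Ajuba and Nt5e entered only through the class where they are high. With the filter read in ductal-like and acinar-like cells alone, 2 of 10 rose and 2 fell, with a median of 0.54. The counts were 2 and 1 without tumour 1, 1 and 0 of 6 tested without tumour 3, and 3 and 0 with DESeq2. Myof, a membrane-repair protein, rose, at 177, 392 and 253 CPM in gated cells, against 66.7, 69.1 and 85.4 CPM in ductal-like cells (log2 difference 1.58 ± 0.24 (SE), adjusted p = 3.44e-08). Ajuba, an inhibitor of the Hippo kinases, stood at 52.1, 0 and 39.5 CPM, against 13.9, 0 and 4.13 CPM. Tinagl1, a matrix glycoprotein, rose by 2.12 in edgeR, with a DESeq2 adjusted p of 0.0617. In gated cells Amotl1 stood at 26.1, 49.0 and 22.0 CPM, Amotl2 at 26.1, 49.0 and 19.8 CPM and Tinagl1 at 46.9, 0 and 87.9 CPM. Ductal-like cells had 1.39, 0 and 1.38 CPM of Amotl1, 1.39, 0 and 2.75 CPM of Amotl2 and 15.3, 0 and 19.3 CPM of Tinagl1. Free RNA held more of each, with Amotl1 at 41.7, 53.5 and 48.8 CPM, Amotl2 at 42.1, 57.1 and 44.1 CPM and Tinagl1 at 82.2, 104 and 114 CPM, and its part was not tested. The actin-binding protein Lima1 fell (93.8, 98.1 and 108 CPM in gated cells, against 172, 237 and 180.4 CPM; log2 difference -0.76), with a DESeq2 adjusted p of 0.341. The surface nucleotidase Nt5e stood at 15.6, 49.0 and 17.6 CPM, against 36.1, 59.2 and 71.6 CPM. Yap1 itself did not pass against ductal-like cells (adjusted p = 0.387) and fell against acinar-like cells (log2 difference -1.43 ± 0.50 (SE), adjusted p = 0.0173; DESeq2 adjusted p = 0.137).

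All 3 tested genes of the mesenchymal transition list rose against ductal-like cells; 2 passed without tumour 1 and with DESeq2, and 1 without tumour 3 and without the tumour block. Tpm1, a tropomyosin, stood at 490.1, 441 and 424 CPM in gated cells, against 222, 247 and 201 CPM in ductal-like cells (log2 difference 1.18 ± 0.18 (SE), adjusted p = 5.1e-08). Tagln2, an actin-bundling protein, stood at 678, 882 and 898 CPM, against 514, 434 and 432 CPM (log2 difference 0.76 ± 0.17 (SE), adjusted p = 0.000243), and Itgb1, an integrin subunit, at 239.8, 147 and 244 CPM, against 149, 158 and 147 CPM (log2 difference 0.80 ± 0.21 (SE), adjusted p = 0.00297). Itgb1 had a DESeq2 adjusted p of 0.119. Of all genes tested, 3.58% rose against ductal-like cells. Of the list's 3 variable members that passed the filter, which have no test, Lgals1 and Cald1 stood above ductal-like cells. The third, Tpm2, passed the filter only through the gated sums and so had to stand above. Tpm2, another tropomyosin, stood at 83.4, 0 and 79.1 CPM in gated cells, against 4.17, 9.87 and 8.26 CPM in ductal-like and 1.60, 0 and 6.58 CPM in acinar-like cells. Lgals1, a galectin made by many mesenchymal cells, stood at 10.4, 98.1 and 48.3 CPM, against 1.39, 0 and 4.13 CPM and 75.4, 28.7 and 112 CPM, so that acinar-like cells were above gated cells in tumours 1 and 3. Cald1, an actin-binding regulator of contraction, stood at 57.3, 49.0 and 30.7 CPM, against 27.8, 19.7 and 26.2 CPM and 6.42, 0 and 22.4 CPM, while free RNA held 292, 449.7 and 349.7 CPM, and its part was not tested. The other 14 of the 20 listed genes did not pass the filter.

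Genes that passed were also ranked by their fitted difference against ductal-like cells. Only genes with a mean of 50 CPM or more over tumours 1 and 3 in the higher class were ranked. Of the 8 ranked highest, 7 entered the test only through the gated sums: Il1a, Il1f6, Lama3, Nbl1, Cnn2, Slc4a11 and Ahr. The exception was Rdx, radixin, which links actin to the membrane. It had 20, 1 and 45 UMIs in gated cells, or 104, 49.0 and 98.8 CPM, against 7, 0 and 9 UMIs and 9.73, 0 and 12.4 CPM in ductal-like cells (log2 difference 3.35 ± 0.38 (SE), adjusted p = 5.38e-14; DESeq2 adjusted p = 4.39e-07). Nbl1, a secreted antagonist of bone morphogenetic proteins, stood at 62.6, 49.0 and 52.7 CPM in gated cells, against 6.95, 0 and 4.13 CPM in ductal-like cells. Cnn2, an actin-binding calponin, stood at 78.2, 98.1 and 48.3 CPM, against 4.17, 0 and 8.26 CPM. Slc4a11, a membrane transporter, stood at 41.7, 49.0 and 61.5 CPM, against 11.1, 0 and 6.89 CPM, and Ahr, the receptor for aryl hydrocarbons, at 67.8, 0 and 50.5 CPM, against 6.95, 9.87 and 12.4 CPM. The rule that named these 4 genes asked for the same direction in tumours 1 and 3, so their agreement there was fixed in advance.

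Of the 6 genes ranked lowest under the same limit of 50 CPM, Creb3l1, Sult1b1 and Neurl3 entered only through the ductal-like sums, and Shmt1, Pllp and Wwp1 did not. Creb3l1, a membrane-bound transcription factor of secretory cells, had 2, 1 and 3 UMIs in gated cells, or 10.4, 49.0 and 6.59 CPM. Ductal-like cells had 47, 5 and 54 UMIs and 65.3, 49.4 and 74.4 CPM. Shmt1, a cytosolic enzyme of folate metabolism, fell, at 10.4, 0 and 10.98 CPM, against 66.7, 158 and 46.8 CPM (log2 difference -2.41 ± 0.50 (SE), adjusted p = 8.75e-05), and so did Pllp, the membrane protein plasmolipin, at 26.1, 0 and 8.79 CPM, against 94.5, 128 and 71.6 CPM (log2 difference -2.33 ± 0.44 (SE), adjusted p = 1.71e-05). Gated cells of tumours 1 and 3 were below every ductal-like sum for these 3 genes, but the rule that named them asked for a fall in both tumours. DESeq2 gave an adjusted p of 0.0375 for Shmt1 and 0.0176 for Pllp, and did not call Wwp1 (0.0761). Without tumour 3 Pllp no longer passed. Vsig1, a gastric junction protein and the only one of 3 tested genes of classical pancreatic cancer to pass, fell as well (93.8, 49.0 and 76.9 CPM in gated cells, against 161, 98.7 and 291 CPM; log2 difference -1.45 ± 0.26 (SE), adjusted p = 3.53e-06), with a DESeq2 adjusted p of 0.328, and no longer passed without tumour 3. Ductal-like cells were chosen by gastric-type genes, and the part of that choice in the fall of Vsig1 was not tested.

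Cell cycle genes were lower in gated than in acinar-like cells, and few passed against ductal-like cells. Of all genes tested, 15.8% fell against acinar-like cells, with a median log2 difference of −0.08. Of 36 S phase genes tested, 0 rose and 25 fell against acinar-like cells, with a median log2 difference of −1.53; 8 of the 25 entered the test only through the acinar-like sums, and without tumour 3 the count was 5 of 26 tested. Against ductal-like cells 0 rose and 1, Hells, fell, with a median of −0.28 and a DESeq2 adjusted p of 0.26 for Hells. Of 38 genes of G2 and M phase, 0 rose and 24 fell against acinar-like cells (median −1.19), 4 of them having entered only through the acinar-like sums. That count was 7 of 30 tested without tumour 3 and 11 with DESeq2. Against ductal-like cells 0 rose and 1, Mki67, fell (median −0.12). A single fall among 36 or 38 genes lies near the 2.25% of all genes that were lower against ductal-like cells. Mki67, the proliferation marker, stood at 67.8, 49.0 and 54.9 CPM in gated cells, 175, 158 and 71.6 CPM in ductal-like cells (log2 difference -0.96 ± 0.29 (SE), adjusted p = 0.0179) and 215, 301 and 240.0 CPM in acinar-like cells, with a DESeq2 adjusted p of 0.5 against ductal-like cells. With each cell thinned to 1000 UMIs, 7.61%, 7.14% and 8.41% of gated cells had 3 or more S phase UMIs, against 15.0%, 18.9% and 11.9% of ductal-like and 52.6%, 60.5% and 41.1% of acinar-like cells. Unthinned, the shares were 23.9%, 14.3% and 35.5% of gated, 31.7%, 20.3% and 32.6% of ductal-like and 80.4%, 63.2% and 74.2% of acinar-like cells. The S phase share of gated cells was thus above that of ductal-like cells in tumour 3 unthinned, and below it in the other tumours and in all 3 after thinning. For 3 or more UMIs of G2 and M phase the thinned shares were 25.0%, 42.9% and 34.6% of gated, 45.5%, 39.2% and 26.9% of ductal-like and 83.7%, 97.4% and 73.1% of acinar-like cells. Unthinned they were 42.4%, 42.9% and 65.4% of gated, 63.0%, 45.9% and 52.9% of ductal-like and 95.2%, 100% and 88.5% of acinar-like cells. The G2 and M share of gated cells was above that of ductal-like cells in tumours 2 and 3 when thinned and in tumour 3 unthinned, so it had no common direction over the tumours.

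Of 33 MYC target and ribosome biogenesis genes, 0 rose and 27 fell against acinar-like cells, with a median log2 difference of −0.95; the count was 16 without tumour 3 and 17 with DESeq2. Against ductal-like cells 0 passed in either direction, with a median of −0.11. Of all genes tested, 15.8% fell against acinar-like and 2.25% against ductal-like cells, with medians of −0.08 and −0.02. Srm, which makes spermidine, stood at 125, 98.1 and 43.9 CPM in gated cells, against 133, 178 and 85.4 CPM in ductal-like and 510.0, 501 and 292 CPM in acinar-like cells (log2 difference -2.28 ± 0.23 (SE), adjusted p = 3.01e-17 against acinar-like cells), and Nolc1, a nucleolar chaperone, at 172, 539 and 94.4 CPM, against 243, 217 and 101 CPM and 606, 516 and 286 CPM (log2 difference -1.61 ± 0.21 (SE), adjusted p = 8.83e-12). The summed list stood at 13013, 11423 and 9684 CPM in gated cells, 14253, 12634 and 9827 CPM in ductal-like cells and 25445, 30500.1 and 19588 CPM in acinar-like cells. The transplanted cells of all 3 tumours carry the same MYC transgene, and its own level was not analysed here.

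Genes of endoplasmic reticulum stress were lower in gated than in acinar-like cells. Of 19 genes of the Atf4 and unfolded protein response tested, 0 rose and 2 fell against ductal-like cells (median −0.24). Against acinar-like cells 0 rose and 13 fell (median −0.85). The shares that fell over all genes tested were 2.25% and 15.8%, with medians of −0.02 and −0.08. With DESeq2, without the tumour block and without tumour 3, 0 fell against ductal-like and 8 against acinar-like cells. With barcodes of any home library kept, 1 gene rose in each comparison. Herpud1, part of protein disposal from the endoplasmic reticulum, stood at 52.1, 98.1 and 59.3 CPM in gated cells, against 113, 138 and 136 CPM in ductal-like cells (log2 difference -1.17 ± 0.29 (SE), adjusted p = 0.00173), and the secreted folding factor Manf at 141, 98.1 and 189 CPM, against 235, 148 and 284 CPM (log2 difference -0.62 ± 0.21 (SE), adjusted p = 0.0415); their DESeq2 adjusted p-values were 0.0899 and 0.355. Hspa5, the main chaperone there, fell against acinar-like cells (log2 difference -1.35 ± 0.17 (SE), adjusted p = 5.9e-12). Of 6 p53 targets and cell cycle inhibitors tested, 0 passed in either direction against ductal-like cells. Against acinar-like cells, where 14.8% of all genes tested rose, 3 rose: Cdkn2b, Ccng1 and Perp. This list had 10 variable members that passed the filter, which have no test. Of these, 9 stood above ductal-like cells, with a median log2 difference of 1.26, and 5 above acinar-like cells, with a median of 0.39. Members that passed the filter only through the gated sums, and so had to stand above, were not counted.

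**Figure D4:**
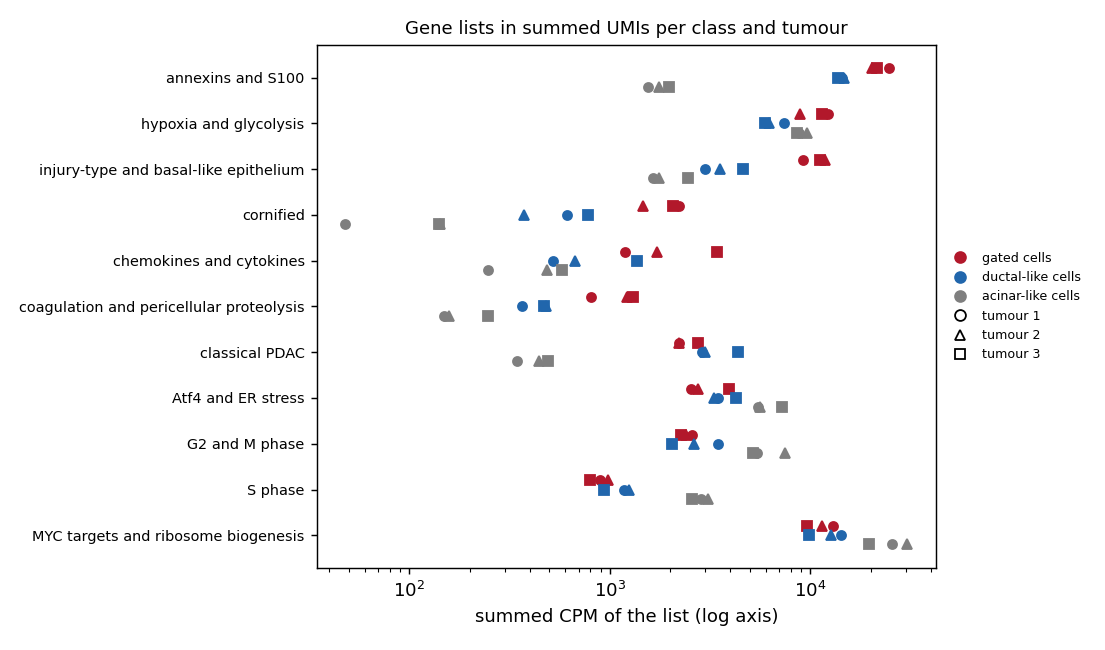
Points are the summed CPM of each gene list in 1 class of 1 tumour on a log axis, with gated cells in red above ductal-like cells in blue and acinar-like cells in grey. Annexins and S100, injury-type, cornified, cytokine and coagulation lists are highest in gated cells within each tumour, while the MYC target, S phase and Atf4 lists are highest in acinar-like cells.

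Antigen presentation genes also moved. Of all genes tested, 14.8% rose against acinar-like and 3.58% against ductal-like cells. All 4 tested genes of MHC class I rose against acinar-like cells, and 1 of 4, H2-K1, rose against ductal-like cells (203, 490.3 and 343 CPM in gated cells, against 131, 138 and 220.4 CPM; log2 difference 0.64 ± 0.20 (SE), adjusted p = 0.0233; DESeq2 adjusted p = 0.26). H2-K1 did not pass without tumour 1 or without tumour 3, and 2 of the 4 rose against acinar-like cells in each of those fits. Bst2, an interferon-induced surface protein, was the only 1 of 5 interferon genes to rise against ductal-like cells, at 62.6, 49.0 and 178 CPM in gated cells, against 55.6, 69.1 and 52.3 CPM (log2 difference 1.23 ± 0.27 (SE), adjusted p = 0.000277; DESeq2 adjusted p = 0.27). Without tumour 3 it no longer passed and its log2 difference was 0.14. Msi2, the gene whose locus drives the CreER, rose against acinar-like cells and did not pass against ductal-like cells, at 88.6, 147 and 85.7 CPM in gated cells, 91.7, 148 and 95.04 CPM in ductal-like cells (adjusted p = 0.818) and 51.3, 0 and 62.7 CPM in acinar-like cells (adjusted p = 0.0467; DESeq2 adjusted p = 0.185).

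The leading genes of gated cells over all other cells, ranked by ratio, were Ly6c1, Sprr1a, Il1a, Cxcl5, Mmp7, Adm, Basp1, Aldh1a3, Plin2 and Mxd1, and all except Il1a are variable genes; none has a test here. Sprr1a, a cornified envelope precursor like Sprr2f, stood at 1163, 637 and 951 CPM in gated cells, against 69.5, 9.87 and 114 CPM in ductal-like and 11.2, 14.3 and 42.6 CPM in acinar-like cells. Over all ungated cells Sprr1a stood at 73.9, 86.2 and 104 CPM. Plin2, the coat protein of lipid droplets, stood at 162, 196 and 283 CPM, against 12.5, 0 and 13.8 CPM and 22.5, 14.3 and 36.0 CPM, and Mxd1, a partner of MAX that opposes MYC, at 119.9, 98.1 and 96.6 CPM, against 16.7, 9.87 and 23.4 CPM and 9.62, 0 and 5.70 CPM. Aldh1a3, an enzyme of retinoic acid synthesis, stood at 99.1, 147 and 141 CPM, against 5.56, 0 and 12.4 CPM and 9.62, 0 and 7.90 CPM. In each tumour these 4 genes were higher in gated cells than in either class. The squamous keratins that the rule limits stayed low, with Krt5, Krt14 and Krt15 together at 0, 49.0 and 98.8 CPM in gated cells.

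Among the largest falls against acinar-like cells, Cckar and Lgi2 entered the test only through the acinar-like sums. Cckar, the cholecystokinin receptor of acinar cells, had 1 UMI in gated cells and 446 in acinar-like cells. Lgi2 had no UMI in gated cells and 28, 3 and 147 UMIs in acinar-like cells of tumours 1, 2 and 3. Acinar-like cells were chosen by acinar enzyme genes, and the part of that choice in such falls was not tested.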

How the data were processed

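RNA of single EpCAM-sorted cells was measured in 3 mouse pancreatic tumours with droplet 3' libraries. The deposited values are raw UMI counts per gene (31053 genes) and barcode, with no normalization; the submitters' processing notes name Cell Ranger 3, Seurat 3.1 and build mm10. The labels give 2 versions of the library kit, without saying which step each was used in.

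Cells had 1000 or more UMIs, 500 or more genes, at most 20% mitochondrial UMIs, under 10% of UMIs in the ribosomal RNA locus genes Gm42418, AY036118 and Gm26917, and 60% or more of the barcode's UMIs over the 3 libraries in their own. Doublets were called with scrublet (scanpy 1.11.5, Python 3.11.15), which marked 4, 4 and 1 cells, none of them gated; none was removed, and leaving out the 5% of highest scores was tried. Levels are UMIs summed per tumour and class, scaled to a sum of 1000000 (CPM), with no SD because each tumour gives 1 sum. Intervals and floors of 3 counts cover counting error only.

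Genes were tested with edgeR 4.0.16 (R 4.3.3; filterByExpr, TMM, glmQLFit and glmQLFTest, Benjamini-Hochberg adjustment, threshold 0.05) on sums of 20 or more cells: 8 sums, 7216 genes, 6346 counted after the gate genes and the 2000 most variable genes were left out, with 3 residual degrees of freedom. The common biological coefficient of variation was 0.105. The tumour was a block, since its gated, ductal-like and acinar-like cells share 1 animal; deviations of ductal-like and acinar-like sums from their class means correlated at 0.177, 0.103 and 0.507 in tumours 1, 2 and 3 over 2549 genes. The labels do not say whether the 3 hosts received cells of separate donors. With the tumour as a block, differences between tumours that all classes share are removed. The p-values then measure how far differences between classes vary over these tumours, and reach no further. That spread is shared over the 3 classes, and only tumours 1 and 3 give gated sums. Without the block the common coefficient of variation was 0.206. The filter kept genes with 18.5 CPM or more in 2 or more sums; genes that met this only through the class where they are high are given without a p-value, a choice made after the values were seen. The steps were tested on simulated data. Alternatives were DESeq2 1.42.0, other normalization, filters, gates, depths and left-out tumours.

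The cells, gene lists and tests were chosen with earlier results of these data known. Genes named are the gate genes, fixed markers, the 8 largest rises and 6 largest falls per test among those at 50 CPM or more that moved one way in each tumour tested, up to 4 passing members per list, and 10 leading genes; other list members named, such as Myof, Hif1a, Gapdh, Cd9, the integrins and the variable genes, were chosen after their values were seen. Promoters are RefSeq's; all 130 named genes matched an annotation entry by gene ID. Values of some list members are not reported here.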

Additional observations from a re-analysis of the deposited data

How the results depend on the processing

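Leaving out 1 tumour in turn gave 50 to 259 genes higher and 9 to 158 lower against ductal-like cells, and 314 to 1043 higher and 221 to 1012 lower against acinar-like cells; the low ends are without tumour 3. Leaving out tumour 1 or tumour 3 leaves 1 gated sum and 1 residual degree of freedom, so that the lone sum is assumed to vary like the others. The hypoxia and glycolysis list then had 4 to 12 members higher against ductal-like and 4 to 10 against acinar-like cells. Against ductal-like cells, DESeq2 called 64 higher and 13 lower with 5 list members, the fit without the replicate block 97 and 25 with 4, and thinning to 1000 UMIs 68 and 48 with 7. Keeping barcodes of any home library gave 344 and 290, and keeping the variable genes, 364 and 219. Against acinar-like cells, DESeq2 called 300 lower, the fit without the tumour block 602 lower with 6 list members, thinning 363 higher and 380 lower with 5 list members, and a gate of 0.6% kept 6 list members. The share of gated cells was 11.1% at a gate of 0.25% and 3.51% at 0.6%. The causes were not tested. Of 1673 recomputed values of named genes, 1484 kept their direction and side of the threshold, 189 kept the direction but no longer passed, and 0 reversed. Sums of 10 or more cells, which bring in tumour 2, and leaving out high doublet scores in the gene tests, gave 168 and 136, and 218 and 149, against ductal-like cells. The filter on low counts read in ductal-like and acinar-like sums alone gave 187 and 133 with 13 list members. These 3 settings were chosen after the data were seen. No setting was tried in which free RNA was subtracted.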
